A study of Danio rerio with 3 samples.

Results

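The genes described here encode the contractile apparatus of skeletal muscle, its calcium handling and energy supply, and the transcription factors of the muscle lineage. They were chosen by name from a list of 46 zebrafish symbols, and 51 of the 27882 gene identifiers in the files matched such a name through reference tables of gene symbols. Capital, human-style names do not tell zebrafish paralogs apart, so all 6 identifiers named TNNI2 were kept for tnni2a.4, and identifiers that share a name are told apart here by the length of their longest transcript. Both DES identifiers stood for desma and both MYL11 identifiers for mylpfa, through RefSeq synonyms. RYR1 and MEF2C, kept for ryr1b and mef2ca, also named 2 identifiers each. Which of the DES, RYR1 and MEF2C identifiers is the listed paralog was not settled. The other 5 symbols, the slow myosin heavy chains smyhc1, smyhc2 and smyhc3 and the light chains mylz3 and mylpfb, were not matched by name, so they are not analysed here under those names, and whether a MYL11 identifier is mylpfb was not settled. All 51 identifiers passed the minimum of 20 reads over the 3 libraries, and the lowest total of any of them was 229 reads.

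RNA of whole larvae of the AB background was sequenced at 3 days post-fertilization, with 1 library per group. The HRAS larvae carried Tg(fli1ep:GAL4FF)ubs3 and Tg(UAS:eGFP-HRASV12)io006, which place an eGFP fusion of oncogenic HRAS under a GAL4 driver active in endothelial cells. The NICD larvae carried the same driver with tg(UAS:NICD)kca3, which encodes the active intracellular domain of Notch. The control larvae were wild type, with no driver named, so an effect of the driver cannot be told apart from that of either transgene. Reads assigned to genes summed to 41105619 in HRAS, 21944303 in NICD and 26384466 in the control. Because each group is a single library, the spread between replicates is not known, no test was run, and each ratio compares 2 libraries rather than 2 conditions.

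Skeletal muscle contracts when myosin thick filaments pull on actin thin filaments within the sarcomere. Calcium released from the sarcoplasmic reticulum binds troponin, which moves tropomyosin off the actin, and calcium pumps and parvalbumin then clear the calcium so that the fibre relaxes. Titin spans from the Z disc to the M band as a molecular spring, and nebulin runs along the thin filament. Most of the trunk of a zebrafish larva is fast muscle, with a superficial layer of slow fibres.

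The muscle genes were among the most abundant transcripts of the larvae. Of all reads assigned to genes, they took 9.24% in HRAS (exact binomial 95% interval 9.23 to 9.25), 9.96% in NICD (9.95 to 9.97) and 9.2% in the control (9.19 to 9.21). These reads are corrected total reads, the authors' unique reads plus an assigned share of the reads that matched several transcripts. On unique reads alone the shares were 5.46% in HRAS, 5.37% in NICD and 5.51% in the control, so the higher share in NICD was not seen there. Unique reads weigh the genes differently. In NICD, myhz1.1, myhz1.2 and myhz2 held 28.8% of the muscle reads on corrected reads and 0.608% on unique reads. The unique share therefore cannot decide whether the share of all muscle genes was higher in NICD. Intervals here and below cover counting error only. In RNA of whole larvae, fewer muscle cells and less RNA per cell cannot be told apart.

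Levels are given as the authors' RPKM, reads per kilobase of the longest transcript, scaled to the library's total corrected reads. In each of the 3 libraries 16 of the 51 genes reached 1000 RPKM. Of the 50 genes with the most RPKM in a library, 12 were muscle genes in HRAS, 15 in NICD and 14 in the control. The highest was the calcium buffer pvalb1, at 8614 RPKM in HRAS, 7631 in NICD and 8624 in the control. The myogenic transcription factors, which switch muscle genes on, lay far lower. MYOD1 had 10.2 RPKM in HRAS, 9.41 in NICD and 9.42 in the control. The fast fibre markers MYL11, TNNT3, myhz2 and atp2a1 were all abundant in the 3 libraries. They are themselves members of the list, so their levels cannot check its label. Of the slow fibre markers, TNNC1 had 144 RPKM in HRAS, 160 in NICD and 180 in the control, and smyhc1 was not matched by name. The 14 heart marker identifiers together summed to 190 RPKM in HRAS, 199 in NICD and 172 in the control, below any 1 of the 16 most abundant muscle genes.

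**Figure D1:**
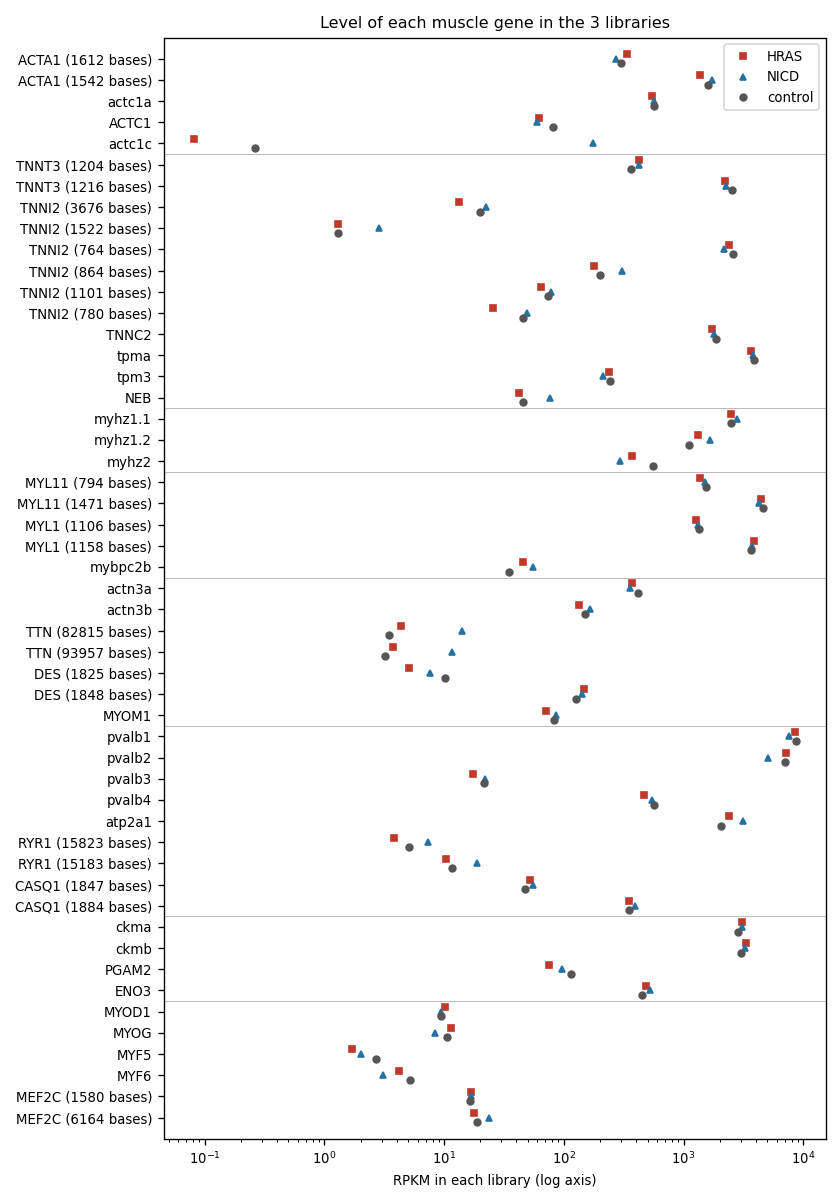
RPKM of the 51 muscle genes (log axis) in the HRAS, NICD and control libraries, 1 point per library, with genes grouped by role and grey lines between roles. For most genes the 3 points lie close together, whereas actc1c stands at 174 RPKM in NICD against 0.264 in the control, and both TTN identifiers lie highest in NICD.

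A gene was called higher or lower when the pair of libraries held at least 50 of its reads, the scaled ratio was at least 2-fold and its exact conditional binomial 95% interval, given in brackets, left out 1. In HRAS against control 0 of 50 muscle genes with enough reads were called higher and 0 lower, where the same rule called 6.09% of all tested genes higher and 4.14% lower. The median log2 ratio of the 51 was -0.08, beside 0.01 over all genes. Log2 ratios lay above 0 for 17 of the 51 and below for 34, beside 11789 and 11541 of 23330 genes with at least 20 reads. Of the 51, 39 (76.5%) lay within 1.25-fold of the control, beside 49.7% of all genes. With 10000 or more reads over the 3 libraries it was 32 of 35 muscle genes (91.4%), beside 67.9% of all genes with as many. Calls were rarer among such genes: of all 1256 of them, 31 were called higher and 22 lower in HRAS against control. Of the 35 muscle genes among them 0 were called higher and 0 lower.

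In NICD against control 4 of 51 muscle genes were called higher and 0 lower, beside 3.56% and 3.12% of all tested genes. They were actc1c, both titin identifiers and a TNNI2 identifier of few reads. The middle log2 ratio of the 51 was 0.04, as over all genes, and -0.03 on unique reads. Within 1.25-fold of the control lay 33 of 51 (64.7%), beside 51.5% of all genes. With 10000 or more reads it was 25 of 35 muscle genes (71.4%), beside 71.5% of all genes with as many. Of these 35 muscle genes 2 were called higher and 0 lower, beside 13 and 22 of all 1256 genes with as many reads. In HRAS against NICD 0 muscle genes were called higher and 4 lower, the same identifiers, beside 5.15% and 6.19% of all tested genes, with a median of -0.14, beside 0.01 over all genes. With 10000 or more reads, 0 of 35 muscle genes were called higher and 2 lower there, beside 15 and 27 of 1256 genes. The comparisons share libraries: HRAS and NICD against control use the same control. The same NICD library is in both comparisons that called the 4 identifiers, so those calls are not independent.

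**Figure D2:**
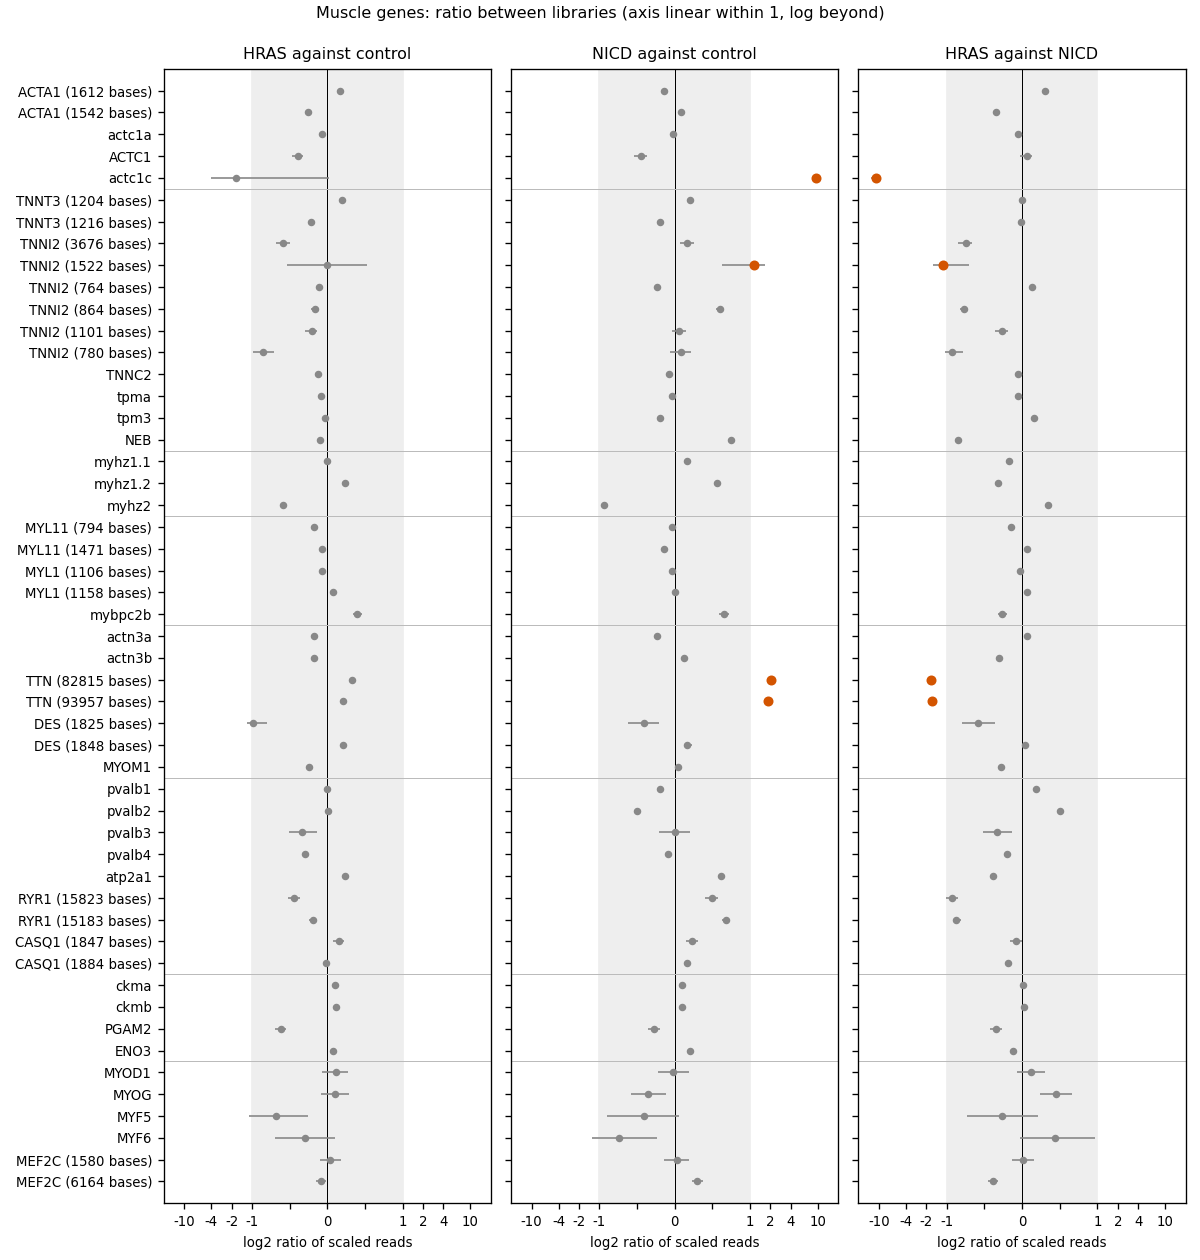
Log2 ratio of scaled reads for each of the 51 muscle genes in the 3 comparisons, on an axis that is linear within 1 and logarithmic beyond. Bars are exact 95% intervals for counting error, orange points were called, and grey shading marks ratios under 2-fold. In HRAS against control no point is orange, and in NICD against control actc1c, the TTN identifiers and TNNI2 (1522 bases) are.

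Among the sarcomeric actins, which form the thin filament, actc1c stood apart from the other 4 identifiers. It had 4 corrected reads in HRAS, 4957 in NICD and 9 in the control. The ratio in NICD against control was 621-fold [345 to 1433]. In HRAS against control the 4 and 9 reads gave 0.302 [0.0638 to 1.02], too few for a call.

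The reads of actc1c were largely shared with its paralog actc1a, an actin of skeletal and cardiac muscle. Non-unique reads of actc1c numbered 23170 in HRAS, 16712 in NICD and 15679 in the control. Those of actc1a were 23178 in HRAS, 16726 in NICD and 15683 in the control, nearly the same numbers in every library. The corrected count gave each copy a share of this common pool close to its share of unique reads. Unique reads of actc1c numbered 1 in HRAS, 1136 in NICD and 2 in the control, and a split of the pool by unique reads gives actc1c 4 reads in HRAS, 5028 in NICD and 9 in the control, close to the deposited values. On unique reads the ratio in NICD against control was 538-fold [185 to 5553]. Corrected and unique reads both put actc1c high in NICD alone, and most of its corrected reads there came from the shared pool. What gave the unique reads was not tested.

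Taken as 1 unit, actc1a and actc1c differed far less between libraries. Their summed corrected reads were 29345 in HRAS, 21285 in NICD and 19676 in the control. The ratio of the sums was 1.29-fold in NICD against control [1.26 to 1.31] and 0.952 in HRAS against control [0.935 to 0.969]. By itself actc1a had 29341 reads in HRAS, 16328 in NICD and 19667 in the control, ratios of 0.952 [0.935 to 0.97] for HRAS and 0.987 [0.967 to 1.01] for NICD against control.

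The most abundant actin was ACTA1 with a transcript of 1542 bases, named for skeletal alpha-actin, with 86230 reads in HRAS, 58555 in NICD and 65723 in the control. It was 0.837 of the control level in HRAS [0.829 to 0.846] and 1.06 in NICD [1.05 to 1.07]. The other ACTA1 identifier, of 1612 bases, went the other way in each, at 1.13 in HRAS [1.1 to 1.15] and 0.908 in NICD [0.884 to 0.932]. ACTC1 lay below the control in both, at 0.761 in HRAS [0.725 to 0.799] and 0.731 in NICD [0.689 to 0.775], and nearly all of its reads were unique. None of these ratios reached 2-fold.

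**Figure D3:**
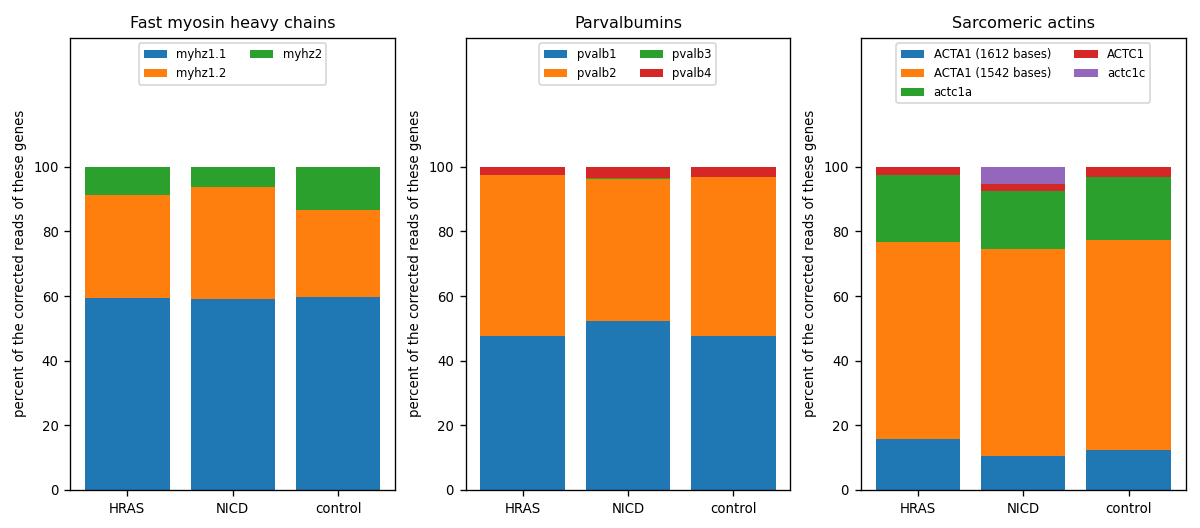
Percent of the corrected reads of the listed members of 3 families held by each of them in the HRAS, NICD and control libraries (stacked bars that sum to 100). In NICD actc1c holds 5.43% of the actin reads. Of the reads of myhz1.1, myhz1.2 and myhz2 together, myhz2 holds 8.83% in HRAS, 6.13% in NICD and 13.4% in the control.

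Of the thin filament regulators, 1 of 12 identifiers was called higher in NICD against control, beside 3.56% of all tested genes, and 0 were called in HRAS against control, beside 6.09% called higher and 4.14% lower. It was TNNI2 of 1522 bases, named for the fast inhibitory subunit of troponin, with 81 reads in HRAS, 96 in NICD and 52 in the control, all unique. Its ratio was 2.19-fold in NICD [1.55 to 3.14] and 0.991 in HRAS [0.693 to 1.44] against the control. It held only 0.203% of the TNNI2 reads in NICD, whereas the TNNI2 identifier of 764 bases held 77.9% and stood at 0.845 of its control level there [0.833 to 0.856]. A minimum of 200 reads left the identifier of 1522 bases out.

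The other regulators stayed under 2-fold. The tropomyosin gene tpma, the most abundant of them, had 206600 reads in HRAS, 114637 in NICD and 139764 in the control, at 0.943 in HRAS [0.937 to 0.95] and 0.975 in NICD [0.968 to 0.983]. TNNC2, the calcium-binding subunit of fast troponin, stood at 0.917 in HRAS [0.908 to 0.926] and 0.951 in NICD [0.941 to 0.961] against the control. The widest difference in HRAS was in TNNI2 of 780 bases, at 0.555 of the control level [0.505 to 0.61], and it lay at 1.06 in NICD [0.961 to 1.16]. NEB, the gene of nebulin, was higher in NICD without reaching the limit, with 33890 reads in HRAS, 32765 in NICD and 23136 in the control, a ratio of 1.68 in NICD [1.66 to 1.71] and 0.935 in HRAS [0.919 to 0.951] against the control. In HRAS against NICD it stood at 0.555 [0.547 to 0.564], and its unique reads, 3% of its total, gave 0.492 [0.45 to 0.537], past the limit.

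The listed fast myosin heavy chains myhz1.1, myhz1.2 and myhz2, motors of fast fibres, held the most corrected reads of any role. They took 27.3% of the reads of the listed muscle genes in HRAS, 28.8% in NICD and 27.2% in the control. On unique reads they held 0.499% in HRAS, 0.608% in NICD and 0.461% in the control. Their copies did not move together. Reads of myhz1.2 numbered 327959 in HRAS, 219042 in NICD and 177051 in the control, and its ratio was 1.18 in HRAS [1.18 to 1.19] and 1.47 in NICD [1.46 to 1.48] against the control. Reads of myhz2 numbered 91459 in HRAS, 38571 in NICD and 87999 in the control. Its ratio was 0.663 in HRAS [0.657 to 0.669] and 0.521 in NICD [0.515 to 0.527], just short of the limit. The most abundant copy, myhz1.1, had 616744 reads in HRAS, 371694 in NICD and 393974 in the control, and stood at 0.999 in HRAS [0.995 to 1] and 1.12 in NICD [1.12 to 1.13]. Outside the list, myhz1.3 had 426116 reads in HRAS, 221840 in NICD and 311107 in the control. It stood at 0.874 in HRAS [0.87 to 0.878] and 0.848 in NICD [0.843 to 0.853].

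Nearly all reads of the listed myosin heavy chains were shared between copies or transcripts. Unique reads made up 0.468% of the corrected reads of myhz1.1, 0.85% of myhz1.2 and 0.0326% of myhz2. The 25 unique reads of myhz2 in HRAS, 8 in NICD and 38 in the control gave ratios of 0.426 in HRAS [0.245 to 0.719] and 0.261 in NICD [0.1 to 0.542] against the control. The intervals above are therefore too narrow, since they leave out how shared reads were assigned. In the RefSeq table of the assembly GRCz12tu, myhz1.1 and myhz1.2 are neighbours.

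The listed myosin light chains, which stabilise the neck of the motor, all stayed within 1.25-fold of the control. Outside the list, the light chain gene myl13 did not, at 0.762 in HRAS [0.739 to 0.785] and 0.613 in NICD [0.59 to 0.636]. MYL11 of 1471 bases had 268437 reads in HRAS, 137864 in NICD and 180153 in the control, and stood at 0.951 in HRAS [0.945 to 0.957] and 0.91 in NICD [0.904 to 0.916]. MYL1 of 1106 bases, whose reads were all unique, stood at 0.952 in HRAS [0.94 to 0.965] and 0.971 in NICD [0.957 to 0.986]. By contrast, mybpc2b, the fast myosin-binding protein C of the thick filament, had 7154 reads in HRAS, 4596 in NICD and 3462 in the control. Its ratio was 1.32 in HRAS [1.27 to 1.37] and 1.58 in NICD [1.51 to 1.65], above the control in both and under 2-fold.

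Both titin identifiers were called higher in NICD and not in HRAS. TTN of 93957 bases had 14541 reads in HRAS, 24176 in NICD and 8012 in the control, although the NICD library was the smallest. Its ratio was 3.59-fold in NICD [3.5 to 3.68] and 1.16 in HRAS [1.13 to 1.19] against the control, and 0.323 in HRAS against NICD [0.316 to 0.33]. TTN of 82815 bases had 14894 reads in HRAS, 25730 in NICD and 7559 in the control. Its ratio was 4.05-fold in NICD [3.94 to 4.15] and 1.26 in HRAS [1.22 to 1.29], and 0.311 in HRAS against NICD [0.304 to 0.317].

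Unique reads gave the same direction for titin. TTN of 93957 bases had 6320 unique reads in HRAS, 10441 in NICD and 3331 in the control, a ratio of 3.71 in NICD against control [3.56 to 3.85]. TTN of 82815 bases had few unique reads, 304 in HRAS, 295 in NICD and 103 in the control, with a ratio of 3.38 in NICD [2.7 to 4.28] and of 1.89 in HRAS [1.51 to 2.4]. In HRAS against NICD its unique reads gave 0.56 [0.476 to 0.66], which missed the limit. The titin genes ttn.1 and ttn.2 are neighbours in the RefSeq table of GRCz12tu.

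Ratios in NICD moved with transcript length over all genes, and titin has the longest transcripts of the list. In NICD against control the median log2 ratio was -0.03 over 4268 genes of at most 1000 bases, 0.15 over 2864 genes of 4000 to 8000 bases, 0.29 over 389 genes of 8000 to 16000 bases and 0.47 over 27 longer genes. In HRAS against control these medians were 0.03, -0.03, -0.14 and -0.00. The 5 muscle identifiers of 15000 bases or more, named TTN, NEB and RYR1, had log2 ratios of 0.49 to 2.02 in NICD and of -0.44 to 0.33 in HRAS. The other 46 had a median of 0.01 in NICD and -0.08 in HRAS.

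The log2 ratios of titin in NICD against control lay above the median of their length class. That median was 0.47 with the muscle genes, the titins included, and 0.44 without them. Of the 24 other genes over 16000 bases, 1 had a log2 ratio above that of the lower titin identifier in NICD. After the median of its length class was taken off, the log2 ratio of TTN was 1.55 for 82815 bases and 1.37 for 93957 bases, against 0.28 for NEB, 0.20 for RYR1 of 15823 bases and 0.39 for RYR1 of 15183 bases. This centring was chosen after the data had been seen. The longest gene of that class besides the titins, syne2b, has 31994 bases, so the class holds no other gene of the length of titin. The part of transcript length in the ratios was not tested.

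**Figure D4:**
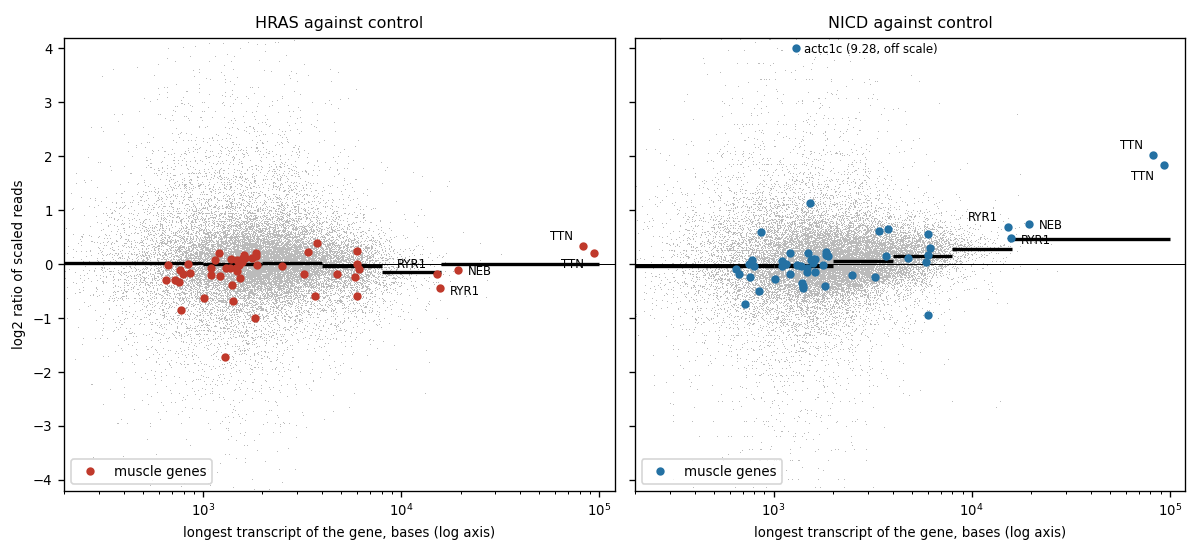
Log2 ratio of scaled reads against longest transcript length in bases (log axis) for HRAS against control (left) and NICD against control (right). Grey dots are all genes with at least 20 reads, coloured points are the muscle genes and black lines are the medians of 6 length classes. In NICD the medians go up to 0.47 in the longest class, and both TTN points lie above that line.

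The other structural genes stayed under 2-fold. Reads of actn3a, the most abundant, numbered 49567 in HRAS, 25550 in NICD and 35718 in the control. The alpha-actinins actn3a and actn3b, which anchor actin at the Z disc of fast fibres, stood at 0.886 [0.874 to 0.898] and 0.882 [0.866 to 0.899] in HRAS, and at 0.851 [0.837 to 0.864] and 1.09 [1.07 to 1.11] in NICD. The identifiers named DES, for the intermediate filament desmin, differed from each other. DES of 1825 bases had 384 reads in HRAS, 307 in NICD and 487 in the control, all unique, and its ratio in HRAS of 0.503 [0.439 to 0.576] sat at the limit of 2-fold. It was called lower in HRAS with DESeq2 size factors, with upper quartile factors and with libraries thinned to equal depth. The far more abundant DES of 1848 bases stood at 1.16 in HRAS [1.12 to 1.19] and 1.13 in NICD [1.09 to 1.17].

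None of the 9 calcium genes was called against the control. Of all tested genes, 6.09% were called higher and 4.14% lower in HRAS, and 3.56% and 3.12% in NICD. Reads of pvalb1 numbered 236870 in HRAS, 112035 in NICD and 152231 in the control. The parvalbumins pvalb1 and pvalb2 differed little in HRAS, at 0.993 [0.987 to 0.999] and 1.01 [1 to 1.01] of the control, and lay lower in NICD, at 0.875 [0.868 to 0.882] and 0.709 [0.703 to 0.714]. The pump gene atp2a1, which returns calcium to the sarcoplasmic reticulum, had 336058 reads in HRAS, 234586 in NICD and 183113 in the control. Its ratio of 1.52 in NICD [1.51 to 1.53] was smaller on unique reads, at 1.17 [1.13 to 1.22].

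RYR1 of 15183 bases, named for the calcium release channel, had 6399 reads in HRAS, 6263 in NICD and 4655 in the control, nearly all of them unique. It stood at 1.6 in NICD [1.54 to 1.66] and 0.877 in HRAS [0.845 to 0.911]. RYR1 of 15823 bases stood at 1.4 in NICD [1.32 to 1.49] and 0.737 in HRAS [0.695 to 0.781], and its few unique reads gave 0.43 in HRAS [0.298 to 0.612]. Likewise pvalb3, at 0.798 in HRAS [0.702 to 0.907], came to 0.368 on unique reads [0.248 to 0.535]. With myhz2, these were the 3 muscle genes called lower in HRAS against control on unique reads. RYR1 of 15823 bases had 54 unique reads in HRAS and 81 in the control, and pvalb3 had 45 and 79. The share of all genes called lower on unique reads is not given here, so the 3 calls cannot be set beside it.

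The 4 energy genes gave no calls. Against the control, the rule called 6.09% of all tested genes higher and 4.14% lower in HRAS, and 3.56% and 3.12% in NICD. Reads of ckmb numbered 220665 in HRAS, 116605 in NICD and 129483 in the control. The creatine kinases ckma and ckmb, which regenerate ATP in the fibre, stood at 1.07 [1.07 to 1.08] and 1.09 [1.08 to 1.1] in HRAS, and both at 1.07 in NICD [1.06 to 1.08]. PGAM2, the muscle phosphoglycerate mutase of glycolysis, had 3152 reads in HRAS, 2151 in NICD and 3093 in the control. It stood at 0.65 of the control level in HRAS [0.619 to 0.684] and 0.827 in NICD [0.782 to 0.874]. ENO3, the muscle enolase, was near the control on corrected reads, at 1.06 in HRAS [1.04 to 1.08] and 1.15 in NICD [1.13 to 1.18], but its 50 unique reads in HRAS, 20 in NICD and 49 in the control gave 0.656 in HRAS [0.434 to 0.994] and 0.49 in NICD [0.272 to 0.827].

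The 6 identifiers of myogenic transcription factors gave no calls either. Against the control, the rule called 6.09% of all tested genes higher and 4.14% lower in HRAS, and 3.56% and 3.12% in NICD. MEF2C of 6164 bases, the most abundant, had 4530 reads in HRAS, 3191 in NICD and 3073 in the control, at 0.941 in HRAS [0.898 to 0.985] and 1.23 in NICD [1.17 to 1.3]. MYOD1, which commits cells to muscle, had 742 reads in HRAS, 366 in NICD and 440 in the control, ratios of 1.08 in HRAS [0.955 to 1.21] and 0.989 in NICD [0.859 to 1.14]. MYOG, which drives their differentiation, stood at 1.07 in HRAS [0.944 to 1.22] and 0.783 in NICD [0.666 to 0.919]. MYF6 had 125 reads in HRAS, 49 in NICD and 98 in the control, and stood at 0.813 in HRAS [0.62 to 1.07] and 0.598 in NICD [0.413 to 0.846]. MYF5 stood at 0.626 in HRAS [0.468 to 0.835] on 98 reads, against 100 in the control, with at most 1 unique read in any library. The intervals of MYF5 in HRAS and MYF6 in NICD reach past 2-fold, so this depth does not settle on which side of the limit they lie.

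Further muscle genes, none of them in the list above, were read from lists of the sarcomere, chaperones, calcium coupling, the nerve-muscle junction, the dystrophin complex, muscle precursors and energy supply. In HRAS against control, 1 of 55 tested identifiers of other sarcomere genes was called higher and 4 lower, beside 6.09% and 4.14% of all tested genes, and the median log2 ratio was -0.19. Against control, NICD had 3 called higher and 0 lower, beside 3.56% and 3.12%, and the median was 0.06. In HRAS the higher gene was tcap, which encodes the titin cap at the Z disc, with 1595 reads in HRAS, 932 in NICD and 339 in the control. It was 3-fold higher in HRAS [2.67 to 3.39] and 3.27-fold higher in NICD [2.88 to 3.71].

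The 4 identifiers lower in HRAS were MYBPC1, MYBPC2, tnni1c and TNNT1. MYBPC1, named for slow myosin-binding protein C, had 810 reads in HRAS, 986 in NICD and 1444 in the control and stood at 0.358 in HRAS [0.328 to 0.39]. MYBPC2, named for the fast form, stood at 0.379 in HRAS [0.317 to 0.452]. The slow troponin genes tnni1c and TNNT1 stood at 0.491 [0.436 to 0.552] and 0.498 [0.41 to 0.602]. Other slow troponin genes of the list were not called in HRAS, with tnni1d at 0.518 [0.461 to 0.582], TNNC1 at 0.794 [0.762 to 0.827] and TNNI1 at 0.878 [0.779 to 0.99]. In NICD the 4 called in HRAS lay between 0.65 and 0.845 of the control and were not called. The genes higher in NICD were tcap, FLNC of 8614 bases, a filamin of the Z disc with 2062 reads in HRAS, 2457 in NICD and 1244 in the control, and mybpha, at 2.03-fold [1.83 to 2.24]. That FLNC identifier was 2.35-fold higher in NICD [2.19 to 2.52], whereas FLNC of 8232 bases stood at 1.32 [1.24 to 1.39].

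Of 28 muscle energy identifiers, 2 were called lower in HRAS and 1 in NICD, beside 4.14% and 3.12% of all tested genes. CKMT2 of 1378 bases, named for the mitochondrial creatine kinase of muscle, had 1087 reads in HRAS, 724 in NICD and 2865 in the control, nearly all unique, and stood at 0.242 in HRAS [0.226 to 0.26] and 0.301 in NICD [0.277 to 0.326]. The more abundant CKMT2 of 1431 bases stood at 0.703 in HRAS [0.677 to 0.73] and 0.906 in NICD [0.869 to 0.944]. The myoglobin gene mb stood at 0.387 in HRAS [0.361 to 0.415] and 0.571 in NICD [0.529 to 0.614]. The medians of this list were -0.21 in HRAS and -0.13 in NICD.

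Among 10 identifiers of the nerve-muscle junction, with medians of -0.06 in HRAS and 0.05 in NICD, CHRNG alone was called, in NICD, beside 3.56% of all tested genes called higher. It encodes an acetylcholine receptor subunit and stood at 2.35-fold in NICD [1.91 to 2.91], on 396 reads in HRAS, 269 in NICD and 136 in the control. It stood at 1.85 in HRAS [1.53 to 2.27]. None of 10 chaperone, 25 calcium coupling or 10 dystrophin complex identifiers was called against the control, with medians of -0.04, -0.17 and 0.04 in HRAS and of -0.02, 0.04 and 0.30 in NICD. Of all tested genes, 6.09% were called higher and 4.14% lower in HRAS, and 3.56% and 3.12% in NICD. Of 25 muscle precursor identifiers, with medians of -0.17 in HRAS and 0.24 in NICD, 2 of 23 tested were called higher in HRAS and 1 of 24 tested in NICD, beside 6.09% and 3.56% of all tested genes. PRDM1, at 2.01-fold [1.82 to 2.24], and PAX3 of 1443 bases, at 2.25-fold [1.44 to 3.76], were called higher in HRAS, and tbx6, on 44 reads in NICD against 12 in the control, in NICD at 4.23-fold [2.26 to 9.07]. That PAX3 identifier had 86 reads in HRAS and 24 in the control, whereas PAX3 of 2713 bases stood at 0.801 in HRAS [0.619 to 1.04]. In HRAS against NICD, 4 of 55 tested identifiers of other sarcomere genes were called lower, MYBPC1, MYBPC2, FLNC of 8614 bases and mybpha. Also called lower were 1 of 25 coupling identifiers, BIN1 of 1704 bases, and 1 of 24 tested precursor identifiers, tbx6. The rule called 6.19% of all tested genes lower there. Unique reads of MYBPC1 were few, 13 in HRAS, 41 in NICD and 41 in the control. Those of mybpha were few as well, 35 in HRAS, 33 in NICD and 23 in the control. The calls of MYBPC1 and mybpha therefore rest mostly on shared reads.

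Markers of other muscle types were read beside these lists. Heart shares actins, desmin and titin with skeletal muscle, and smooth muscle shares desmin. The lists overlap: the same TNNI1 identifier is in the lists of other sarcomere genes and heart markers. Both MYL9 identifiers are in the lists of muscle precursors and smooth muscle. Of 14 heart marker identifiers 3 were called higher in HRAS, nppb, nppa and myh6, and 2 in NICD, nppb and nppa, beside 6.09% and 3.56% of all tested genes, with medians of 0.37 in HRAS and 0.27 in NICD. On 13 reads in the control, nppb stood at 6.83-fold in HRAS [4.01 to 13.6] and 6.39-fold in NICD [3.62 to 13]. The ratio of nppa was 2.74-fold in HRAS [2.41 to 3.14] and 2.76-fold in NICD [2.39 to 3.19]. It had 0 unique reads in each library, so unique reads cannot check it. The called myh6, of 5934 bases, had 875 reads in HRAS, 408 in NICD and 272 in the control. The more abundant MYH6 of 5990 bases went the other way, at 0.672 in HRAS [0.646 to 0.698] and 0.954 in NICD [0.915 to 0.995]. In HRAS, 11 of the 14 had log2 ratios above 0 and 3 below, beside 11789 and 11541 of 23330 genes with at least 20 reads. MYL7, a light chain of the heart, had 1289 reads in HRAS, 682 in NICD and 578 in the control. Of 13 smooth muscle identifiers TAGLN of 1305 bases alone was called against the control, higher in HRAS, beside 6.09% of all tested genes, with medians of -0.34 in HRAS and -0.08 in NICD. It stood at 2.14-fold in HRAS [2.03 to 2.24] and 1.03 in NICD [0.971 to 1.1]. The sum over the list was 371 RPKM in HRAS, 328 in NICD and 323 in the control. Of it, TAGLN of 1305 bases made up 133 RPKM in HRAS, 64.6 in NICD and 61.8 in the control. TAGLN of 771 bases went the other way in HRAS, at 0.73 [0.663 to 0.803]. In HRAS, 4 of the 13 identifiers had log2 ratios above 0 and 9 below, beside the same 11789 and 11541 of 23330 genes. CNN1 was near 0, with 6 reads in HRAS, 4 in NICD and 16 in the control. The part of either tissue in the ratios of the muscle genes was not tested.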

How the data were processed

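Per the series' design text, reads came from an Illumina HiSeq 2000 and were analysed with CLC bio Assembly Cell 3.2 against Ensembl 63 transcripts of the assembly Zv9. The submitters' processing notes name CASAVA 1.8. TruSeq libraries were made from 10 ug of total RNA, per the labels' protocols. Strandedness is not stated. For each gene the authors deposited the count of unique reads, the count of non-unique reads, corrected total reads, which are an expected count deposited in whole numbers, and RPKM. Unique reads equalled 50.3% of corrected reads in HRAS, 51% in NICD and 50.9% in the control.

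TMM factors from edgeR 4.0.16 under R 4.3.3 scaled the corrected reads. Ratios were formed after 0.5 reads were added to each library, with exact conditional binomial (Clopper-Pearson) 95% intervals from scipy 1.17.1, and the calculation was tested on simulated data. Such intervals treat reads as independent, which PCR copies without molecular identifiers are not. A floor of 3 reads equals 0.073 CPM in HRAS, 0.137 CPM in NICD and 0.114 CPM in the control. A reference table of gene symbols named 19635 of 27882 identifiers (70.4%). Members, lists and rules were chosen with earlier results of these data known. By rule, reads per library are given for members called in any comparison and for the member of each role with the most RPKM, and up to 4 called genes of each other list are named. Further genes were named after their values were seen. The alternatives used total reads, DESeq2 1.42.0 size factors, upper quartile factors, totals without muscle genes, unique reads, RPKM, no minimum or 200 reads, 5 reads added, thinning, and limits of 1.5-fold or 4-fold.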

Additional observations from a re-analysis of the deposited data

How the results depend on the processing

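In HRAS against control, 1 muscle gene was called lower with DESeq2 size factors, 1 with upper quartile factors and 1 with libraries thinned to the smallest, each time DES of 1825 bases, and 3 were on unique reads and 6 with a 1.5-fold limit. The median log2 ratio became -0.10 with DESeq2 size factors, -0.10 with upper quartile factors and -0.11 on unique reads. In NICD against control, 9 genes were called higher with a 1.5-fold limit and 2 with a 4-fold limit, and 2 were called lower with a 1.5-fold limit, 1 on unique reads (ENO3) and 1 after centring on genes of like length (myhz2). The median was -0.03 on unique reads. In HRAS against NICD, 10 genes were called lower with a 1.5-fold limit and 1 with a 4-fold limit, and the median was -0.08 on unique reads. On unique reads 5 were called lower there, with NEB and RYR1 of 15823 bases gained and TTN of 82815 bases lost. The muscle share of reads on unique reads was 5.46% in HRAS, 5.37% in NICD and 5.51% in the control. A minimum of 200 reads left 3 called genes in each comparison that had 4. The shares of all tested genes called under these other settings are not given here. These counts therefore show how the calls moved, and not whether muscle genes differ from all genes. The cause of these moves was not tested. The ratios of the 4 identifiers called at 2-fold kept their sign under these settings in the comparisons that called them. On unique reads ENO3 in NICD against control went to 0.49, against 1.15 on corrected reads. TNNI2 of 864 bases, past the 1.5-fold limit at 1.52 on corrected reads in NICD against control, went to 0.941 [0.485 to 1.78]. That value rests on 19 unique reads in NICD and 24 in the control, and its interval includes 1.52. No paired analysis was possible because each group has 1 library. Few unique reads stand behind myhz2, pvalb3, ENO3, RYR1 of 15823 bases, TNNI2 of 864 bases and TTN of 82815 bases.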

Other observations

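Among the 24 genes outside the muscle list with a transcript over 16000 bases, the highest ratio in NICD belonged to si:dkey-239b22.1, of 17006 bases, chosen here after its values were seen. It had 2604 reads in HRAS, 3501 in NICD and 613 in the control, log2 ratios of 1.44 in HRAS and 2.76 in NICD, and 91.4% of its reads were unique. The sarcomere gene obscnb, which encodes the giant protein obscurin, lay at 0.74 in NICD and -0.14 in HRAS, close to the values of NEB.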
